A study of Mus musculus with 56 samples.

Results

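The 8 genes described here encode the receptor chains for interferon-γ (*Ifngr1*, *Ifngr2*) and for the type I interferons (*Ifnar1*, *Ifnar2*), 2 of the Janus kinases bound to those chains (*Jak1*, *Jak2*) and 2 of the suppressors of cytokine signalling that they induce (*Socs1*, *Socs3*). They were taken by symbol, as 8 of the 55359 gene rows of the count table, and all 8 passed the filter on low counts. Bulk SmartSeq2 libraries of 200 sorted cells were made from CD8+ T cells specific for OVA:Kb, which recognize both graft and fetus (TFGS), from spleen and lymph nodes of female C57BL/6 mice. Naive mice (n = 3) had received neither graft nor pregnancy, and Sensitized mice (n = 4) had rejected a skin graft from a 2W-OVA.BALB/c donor. Post-partum mice had carried a semi-allogeneic pregnancy by 2W-OVA.BALB/c males, and their TFGS were sorted by surface PD1 and CD73. Naive mice after pregnancy gave N+P C1 (PD1-, n = 3) and N+P C5 (PD1+CD73+, n = 3). Sensitized mice after pregnancy gave the PD1- subset S+P C4 (n = 6), the PD1+CD73+ subset S+P C5 (n = 6) and, as PD1+CD73- cells, S+P C7 (n = 5). The subsets of 1 post-partum cohort share replicate numbers, and N+P C5 and S+P C5 are defined by 2 proteins, so neither stands for all TFGS of a mouse. The S+P replicate numbers exceed the mice per group that the study describes, so some numbers may share a mouse.

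Interferon-γ signals through a receptor built of IFNGR1, which binds the cytokine and docks JAK1, and IFNGR2, which docks JAK2. The kinases then phosphorylate transcription factors that move to the nucleus. Type I interferons use IFNAR1 and IFNAR2 with TYK2 and JAK1. SOCS1 and SOCS3 are induced by cytokine signalling and inhibit the kinases that induced them. In T cells, the amount of IFNGR2 is known to limit the response to interferon-γ, and T helper 1 cells, which make interferon-γ, are known to carry little of it.

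*Ifnar2*, *Ifnar1* and *Ifngr2* lie on the same strand of chromosome 16 within 192895 bases (GRCm39), whereas *Ifngr1* lies on chromosome 10 from 19467697 to 19485977, *Jak1* on chromosome 4, *Jak2* on chromosome 19 from 29228677 to 29290505, *Socs3* on chromosome 11 and *Socs1* elsewhere on chromosome 16. The 250 bases before the start of the canonical transcript are shown for *Ifngr1* and *Ifngr2*, the 2 chains of 1 receptor that stood farthest apart in level, and for *Jak2*, the kinase docked on IFNGR2. Capitals mark the letters GGGCGG (a GC box) on either strand and TTCNNNGAA (a gamma-activated sequence, an element of genes induced by interferon-γ).

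Ifngr1, chr10:19467447-19467696, plus strand: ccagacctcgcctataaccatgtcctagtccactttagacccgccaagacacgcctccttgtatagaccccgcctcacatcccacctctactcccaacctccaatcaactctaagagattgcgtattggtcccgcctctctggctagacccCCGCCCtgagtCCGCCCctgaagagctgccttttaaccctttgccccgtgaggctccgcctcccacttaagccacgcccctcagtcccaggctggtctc
Ifngr2, chr16:91343656-91343905, plus strand: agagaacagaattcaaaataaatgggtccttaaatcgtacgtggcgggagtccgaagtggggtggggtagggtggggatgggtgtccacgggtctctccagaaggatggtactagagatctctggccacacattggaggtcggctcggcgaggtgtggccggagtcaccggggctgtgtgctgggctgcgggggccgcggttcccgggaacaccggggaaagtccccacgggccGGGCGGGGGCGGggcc
Jak2, chr19:29228427-29228676, plus strand: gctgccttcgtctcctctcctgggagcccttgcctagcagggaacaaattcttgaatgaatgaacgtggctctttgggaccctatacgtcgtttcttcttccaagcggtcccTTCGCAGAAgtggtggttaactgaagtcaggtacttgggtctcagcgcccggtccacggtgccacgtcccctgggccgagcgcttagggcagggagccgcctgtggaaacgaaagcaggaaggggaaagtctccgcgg

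*Ifngr1* and *Ifngr2* each held 2 GC boxes in this window, those of *Ifngr2* next to each other, and neither held the TTCNNNGAA letters. A GC box was found in 4 of the 8 members and in 36.6% of the 19532 promoters of tested genes that were searched over the same length. TTCNNNGAA was found before *Jak2*, *Ifnar2* and *Socs3*, against 6.84% of all promoters, and the interferon-stimulated response element, searched as TTTCNNTTTC on both strands, was found in 0 of 8 members and in 3.38% of all promoters. TATAAA was found before *Ifnar1* (11% of all promoters). These are matches of letters and not measured binding sites.

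The samples held between 15547934 and 54809406 counts. In every group 8 of 8 CD8 T cell markers (such as *Cd8a*, *Cd8b1* and *Cd3e*) were above 3 counts, and their summed level was 5340 to 8840 CPM (counts scaled to the library total with TMM, the trimmed mean of M values, as are all levels here). Messenger RNA of the sort genes followed the gates in part. *Pdcd1*, which encodes PD1, was at 90.3 to 405 CPM in S+P C5 and at 0 to 131 CPM in S+P C4. In S+P C7, which was sorted as PD1+, it ran from 0.0467 to 578 CPM, with 1 count in replicate 3. *Nt5e*, which encodes CD73, was at 21.6 to 170.2 CPM in S+P C5 and at 0 to 53.95 CPM in S+P C7. 1 library of Naive replicate 1 and 1 of S+P C4 replicate 1 held identical counts and were dropped, and S+P C7 replicates 1 and 2, with nearly identical libraries, were averaged. Few genes, 7436 to 8002, were detected in S+P C7 replicate 3 and in replicates 2 and 3 of S+P C4, whereas 12383 to 26805 were detected in the other samples. In S+P C4 replicate 3, mitochondrial counts made up 24.3%, and erythroid markers (such as *Hba-a1*) summed to 20100 CPM in S+P C7 replicate 3, so results that rest on these samples are given with and without them.

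Per kilobase of exon, *Ifngr1* and *Jak1* were the most abundant members, with means over the 30 samples of 113 and 91.4 CPM per kb, above 98.5% and 98.1% of the genes tested. *Ifnar2* (21.3 CPM per kb), *Ifnar1* (16.3 CPM per kb) and *Jak2* (15.3 CPM per kb) followed, then *Socs3* (9.18 CPM per kb) and *Socs1* (6.72 CPM per kb). *Ifngr2* was the lowest, at 3.92 CPM per kb, and ranged from 0 to 17.0 CPM per kb. The 2 chains of the interferon-γ receptor thus stood at opposite ends of the list. The plot of member levels gives every sample.

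**Figure D1:**
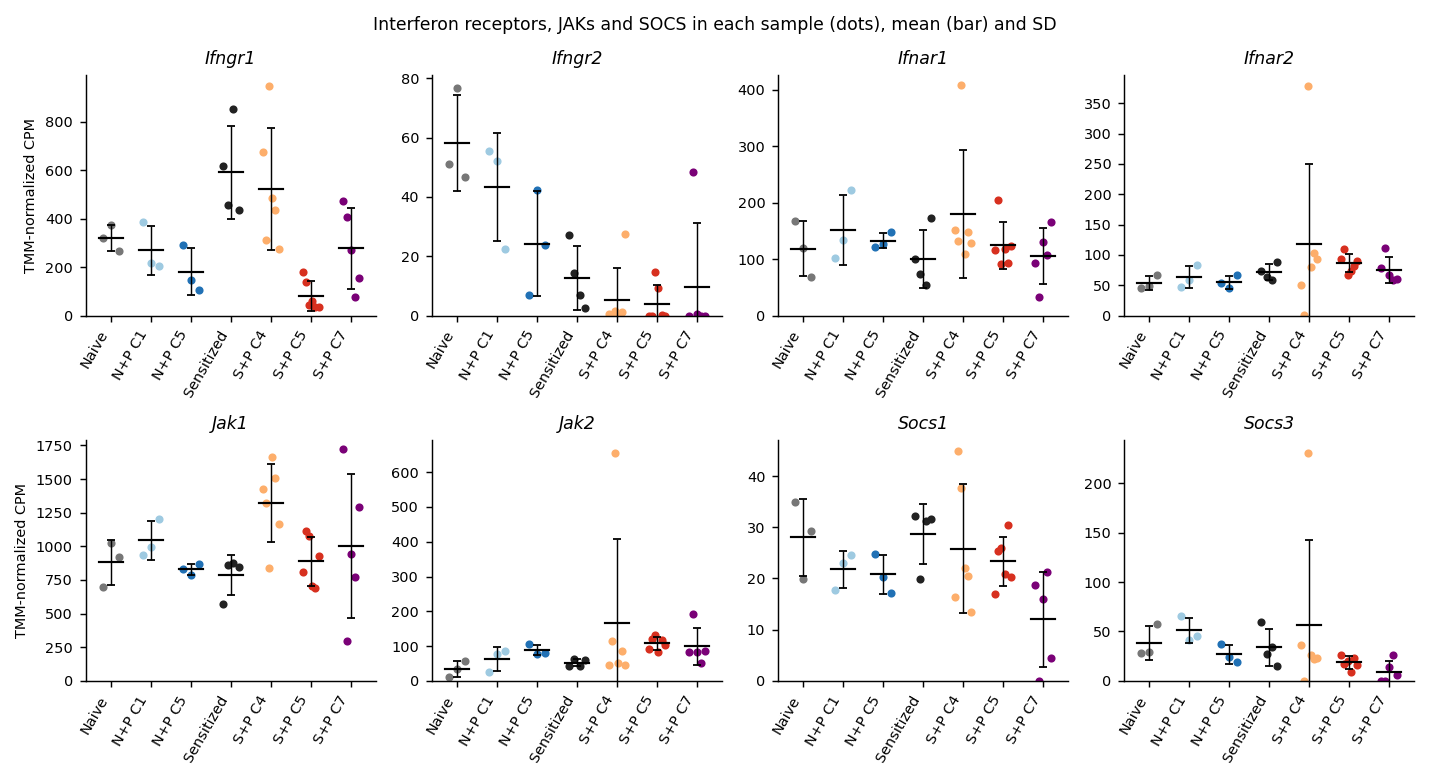
TMM-normalized CPM of each member (y axis, linear, from 0) in each sample (dots) of the 7 groups, with group mean (bar) and SD (whisker, cut at 0). *Ifngr1* sits lowest in S+P C5 (33.2 to 180.2 CPM), *Ifngr2* is highest in Naive (46.7 to 76.8 CPM) and near 0 in most S+P samples, and the single high dots of S+P C4 in *Ifnar1*, *Ifnar2*, *Jak2* and *Socs3* are all replicate 3.

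*Ifngr1*, the ligand-binding chain, was high in memory TFGS and low in the PD1+CD73+ subset after pregnancy. The Sensitized mice had 617, 457, 854 and 435 CPM, and S+P C4 ran from 276 CPM through a median of 459.8 to 948 CPM. S+P C5 ran from 33.2 CPM through a median of 53.2 to 180.2 CPM. All 6 S+P C5 samples were therefore below all 4 Sensitized and all 6 S+P C4 samples. In S+P C7 the values were 473, 407, 269.6, 77.5 and 156 CPM, which spanned the range between these groups.

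In S+P C5 vs. Sensitized, *Ifngr1* fell by 2.85 on the log2 scale (SE 0.49, adjusted p = 0.0118, edgeR), and it was the only 1 of 8 members past the thresholds (a log2 fold change beyond 0.9 in size with an adjusted p under 0.1), which 0.0712% of the 19657 genes tested passed. In S+P C5 vs. S+P C4, 2 subsets of the same cohort, it fell by 2.67 (SE 0.46, adjusted p = 0.019, edgeR), again as the only member, against 0.0305% of genes. No overlap in this direction between S+P C5 and S+P C4 was found for 0.102% of all genes tested, and for 1.42% between S+P C5 and Sensitized. Neither call held without the filter on low counts (adjusted p = 0.12 and 0.109), and the second was also lost when only the compared groups entered the fit (adjusted p = 0.177), with log2 fold changes of -2.86, -2.66 and -2.68. Both held without the samples of few detected genes (adjusted p = 0.000973 and 0.0114), and with replicates 1 and 2 of S+P C4 and of S+P C5 averaged as in S+P C7 (-3.12 and -3.0, adjusted p = 0.0053 and 0.00917). In bulk libraries, fewer cells expressing a gene and less RNA per cell cannot be told apart.

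Within the sensitized post-partum cohort, *Ifngr1* followed the same order in every replicate number. S+P C4 was above S+P C5 in 6 of 6 numbers, where the S+P C5 level was 0.0471 to 0.441 times that of S+P C4. Both ends of this range rest on S+P C4 samples with few detected genes. The lowest was replicate 3 (948 CPM, against 44.7 CPM in S+P C5) and the highest replicate 2 (310 against 137 CPM). In 5 of 5 numbers S+P C7 lay between the other subsets, at 2.33 to 9.12 times the S+P C5 level. The highest of these ratios rests on S+P C7 replicate 3 (407 CPM), also with few detected genes. In the edgeR fit over all samples, S+P C7 vs. S+P C5 gave a log2 difference of 1.76 (SE 0.46) that did not pass (adjusted p = 0.278, 0% of genes passed), whereas DESeq2 on the same counts put it past the thresholds (log2 difference 1.74, adjusted p = 0.026). The S+P C7 vs. S+P C4 difference was -0.91 on the log2 scale (SE 0.46, adjusted p = 0.335), and S+P C7 vs. Sensitized gave -1.09 (SE 0.50, adjusted p = 0.473), which limma-voom with sample weights placed past the thresholds (-1.73, adjusted p = 0.0156). S+P C4 and Sensitized differed by -0.18 (SE 0.48, adjusted p = 1), a value whose sign turned to 0.08 without Sensitized replicate 3.

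**Figure D2:**
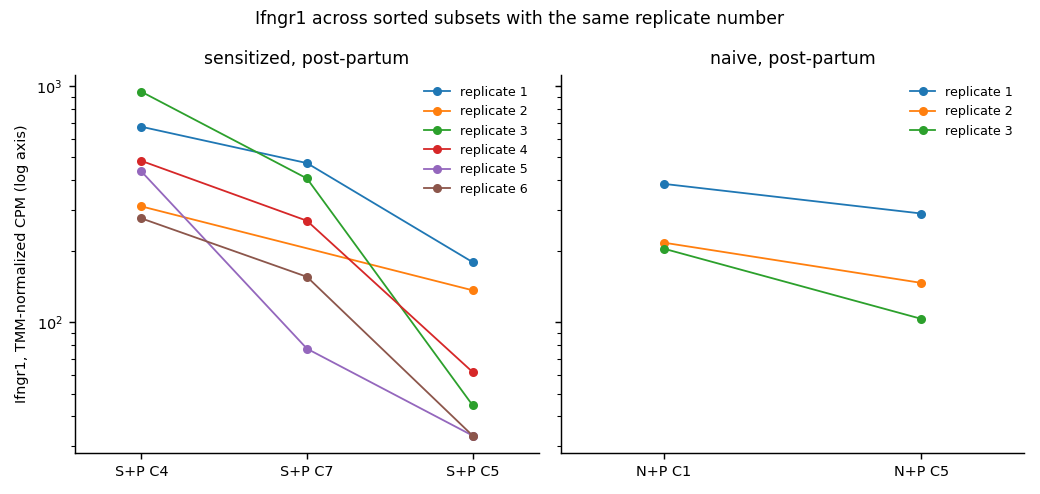
*Ifngr1* level (TMM-normalized CPM, log axis) in the sorted subsets of sensitized (left) and naive (right) post-partum mice, with lines joining samples of the same replicate number. Every line drops from the PD1- subset to the PD1+CD73+ subset, from 276 to 948 CPM down to 33.2 to 180.2 CPM on the left, and from 205 to 386 CPM down to 104 to 289 CPM on the right; S+P C7 replicate 1 averages 2 nearly identical replicates, and replicate 2 has no S+P C7 point.

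In mice that had no graft before pregnancy the same order was seen, and no difference passed. Naive mice had 319, 374 and 268 CPM of *Ifngr1*, N+P C1 had 386, 218 and 205 CPM, and N+P C5 had 289, 147 and 104 CPM. N+P C5 was below N+P C1 in 3 of 3 replicate numbers, at 0.504 to 0.749 times its level, but neither N+P C5 vs. N+P C1 (log2 difference -0.58, SE 0.61, adjusted p = 1) nor N+P C5 vs. Naive (-0.83, SE 0.61, adjusted p = 0.999) passed. Of 8 members, 0 passed in N+P C5 vs. Naive, N+P C5 vs. N+P C1 and N+P C1 vs. Naive (edgeR, DESeq2 and limma-voom), where 0.0407%, 0.00509% and 0% of genes passed in edgeR. There 0 members had an unadjusted p under 0.05 in edgeR, against 5.33%, 4.31% and 3.23% of all genes. The S+P C5 vs. Sensitized difference of *Ifngr1* minus that of N+P C5 vs. Naive was -2.02 on the log2 scale (SE 0.78, adjusted p = 0.649, edgeR). It did not pass, with 0.0254% of genes passing, and limma-voom with sample weights gave -2.49 (adjusted p = 0.094). In both differences, pregnancy and the PD1+CD73+ gate cannot be told apart. S+P C5 vs. N+P C5 gave -1.14 (SE 0.51, adjusted p = 0.836, edgeR, 0% of genes passed). There 1 member had an unadjusted p under 0.05 in edgeR, as did 5.88% of all genes. DESeq2 called 0 members and limma-voom called 1 (*Ifngr2*).

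*Ifngr1* was also compared between TFGS before and after a graft. Each of the 4 Sensitized samples was above each of the 3 Naive samples, as were 3.78% of all genes tested, with a log2 difference of 0.88 (SE 0.58, adjusted p = 0.793). Of 8 members, 0 passed in Sensitized vs. Naive, where 0.153% of genes did, and 0 had an unadjusted p under 0.05 by edgeR (7.82% of all genes), while DESeq2 and limma-voom called 0. S+P C4 was 0.95 above N+P C1 on the log2 scale (SE 0.55, adjusted p = 0.638), and 0 of 8 members passed there in edgeR, against 0.061% of genes. An unadjusted p under 0.05 was found for 0 members and 9.22% of all genes. DESeq2 called 0 members and limma-voom 1 (*Ifngr2*). The order of the group means of *Ifngr1* was Sensitized (590.5 ± 193 CPM, SD), S+P C4 (521 ± 253), Naive (320.4 ± 53.2), S+P C7 (277 ± 166), N+P C1 (269.8 ± 101), N+P C5 (180.0 ± 97.2) and S+P C5 (81.6 ± 62.0). Neighbours in this order overlapped in each case.

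Markers of other cells were read beside the fall of *Ifngr1* in S+P C5. The summed level of 6 B cell markers was 17.2 to 38.1 CPM in Sensitized and 69.3 to 219 CPM in S+P C5. The larger part of it in each of these samples was *Cd22*, an inhibitory lectin, at 9.77 to 25.8 CPM in Sensitized and 69.1 to 212 CPM in S+P C5, whereas the defining markers *Ms4a1* and *Pax5* were at 0 counts in every sample of both groups. Myeloid markers summed to 6.75 to 373 CPM in Sensitized and 26.7 to 82.5 CPM in S+P C5 and all 4 γδ T cell markers were at 0 counts in S+P C5. The summed level of 6 dendritic cell markers was 33.2 to 99.5 CPM in Sensitized, 0.0521 to 99.3 CPM in S+P C4 and 0 to 30.6 CPM in S+P C5. S+P C5 thus lay below Sensitized without overlap. Of these 6 markers, 3 exceeded 3 counts in at least 1 Sensitized sample and 2 in at least 1 S+P C5 sample. *Flt3* and *Batf3* were at 0 counts in Sensitized, and *Siglech* and *Clec9a* at 0 counts in S+P C5. The part of these levels in the fall of *Ifngr1* was not tested.

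*Ifngr2*, the chain that brings JAK2 to the receptor, was highest in TFGS of mice that had never seen a graft, and was near 0 in most sensitized post-partum samples. Naive mice had 51.0, 76.8 and 46.7 CPM, and N+P C1 had 55.4, 52.3 and 22.5 CPM. N+P C5 had 6.78, 42.4 and 23.65 CPM. Sensitized mice had 27.1, 14.2, 6.92 and 2.47 CPM. All 13 of these samples held more than 2 CPM, and the Sensitized samples were all below the Naive samples.

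Among the 17 sensitized post-partum samples, 13 were under 2 CPM of *Ifngr2*. S+P C4 ran from 0 through a median of 0.752 to 27.6 CPM, and S+P C5 ran from 0 through a median of 0.0127 to 14.6 CPM. The S+P C7 samples had 0, 48.3, 0.39, 0 and 0 CPM, and the single high value came from replicate 3, the sample with few detected genes and many erythroid counts. Without that sample the highest S+P C7 value was 0.39 CPM. In the 7 samples with 0 counts of *Ifngr2*, a count of 0 allows up to 0.0637 to 0.137 CPM (3 counts, counting error only). The plot of *Ifngr1* against *Ifngr2* shows the 2 chains side by side.

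**Figure D3:**
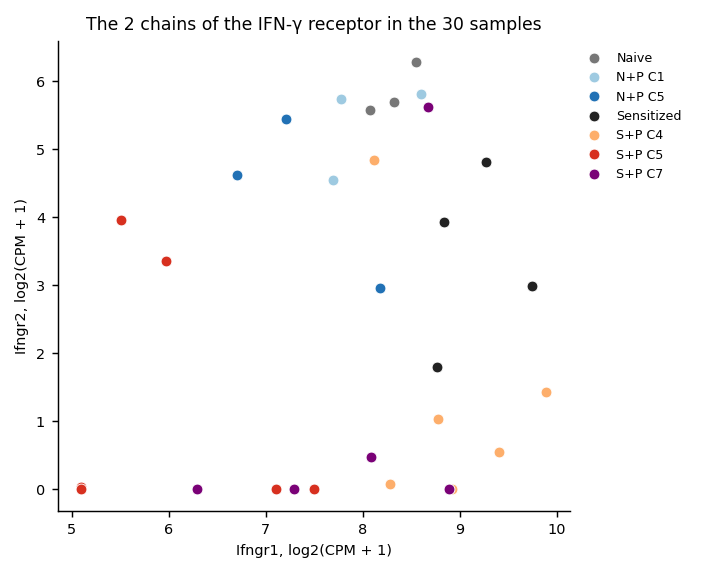
*Ifngr1* (x axis) and *Ifngr2* (y axis), each as log2(CPM + 1), in the 30 samples, coloured by group. The 3 Naive samples lie at the top (46.7 to 76.8 CPM of *Ifngr2*), N+P and Sensitized samples span 2.47 to 55.4 CPM, and 13 of 17 S+P samples lie under 2 CPM of *Ifngr2*, with the S+P C5 samples to the left of the S+P C4 samples.

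The edgeR fit gave wide errors for *Ifngr2*, and no comparison passed. Sensitized vs. Naive gave a log2 difference of -2.20 (SE 2.33, adjusted p = 1), although no sample overlapped, as was the case in that direction for 3.81% of genes. N+P C5 vs. Naive gave -1.26 (SE 2.51, adjusted p = 1), with N+P C5 below Naive in every sample, as for 5.48% of genes. S+P C4 vs. N+P C1 gave -3.07 (SE 2.08, adjusted p = 0.751), and -6.06 without S+P C4 replicate 6, its single high sample (adjusted p = 0.46). S+P C5 vs. N+P C5 gave -2.61 (SE 2.06, adjusted p = 1). With limma-voom and sample weights, the differences of S+P C4 vs. N+P C1 and S+P C5 vs. N+P C5 were -6.44 and -6.65 and passed (adjusted p = 0.0296 and 0.0277), as did S+P C5 vs. Sensitized and S+P C7 vs. Sensitized (-5.29 and -7.46, adjusted p = 0.098 and 0.0307), against -1.67 (SE 1.93) and -0.38 (SE 2.02) in edgeR (adjusted p = 1 for both). The S+P C7 vs. Sensitized value in edgeR turned to 0.28 without Sensitized replicate 1 and was -7.0 without S+P C7 replicate 3 (adjusted p = 0.498). Among the alternatives run, *Ifngr2* passed only in the fit that weights samples. Its group means ran in the order Naive (58.2 ± 16.3 CPM, SD), N+P C1 (43.4 ± 18.2), N+P C5 (24.3 ± 17.8), Sensitized (12.7 ± 10.8), S+P C7 (9.74 ± 21.6), S+P C4 (5.14 ± 11.02) and S+P C5 (3.98 ± 6.39). Again all neighbours overlapped. The 4 NK cell markers (*Ncr1*, *Klrb1c*, *Klre1* and *Eomes*) summed to 4.61 to 55.5 CPM in Naive, 118 to 244 CPM in Sensitized and 1.99 to 678 CPM in the S+P groups. Of these, *Eomes* and *Klre1* are also made by memory CD8 T cells. *Ncr1* was at 0 counts in Naive, N+P C5 and S+P C5. In Sensitized, S+P C4 and S+P C7, each of the 4 exceeded 3 counts in at least 1 sample. Summed markers of stroma and endothelium were at 93.3 to 158 CPM in Naive, 79.7 to 103 CPM in N+P C1, 69.2 to 92.4 CPM in N+P C5 and 4.4 to 42.6 CPM in Sensitized. They were at 0 to 21.5 CPM in S+P C4, 23.2 to 140 CPM in S+P C5 and 0.0934 to 55.2 CPM in S+P C7, and *Cdh5* of this list was at 0 counts in all groups but S+P C7. The part of these markers in the *Ifngr2* levels was not tested.

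The type I interferon receptor chains passed in no comparison. Group means of *Ifnar1*, the TYK2-binding chain, lay between 99.9 ± 51.7 CPM (SD, Sensitized) and 179.5 ± 113 CPM (S+P C4), and those of *Ifnar2*, the JAK1-binding chain, between 53.2 ± 11.3 CPM (Naive) and 117 ± 133 CPM (S+P C4). S+P C4 replicate 3 alone had 408 CPM of *Ifnar1* and 378 CPM of *Ifnar2*, and without the samples of few detected genes the S+P C4 means were 134 ± 20.3 and 81.7 ± 23.0 CPM. *Ifnar1* differed by 0.85 on the log2 scale in S+P C4 vs. Sensitized (SE 0.47, adjusted p = 0.489), 0.46 without the samples of few detected genes and 0.42 without S+P C4 replicate 3 alone. For *Ifnar2*, all 6 S+P C5 samples (66.9 to 109.7 CPM) were above all 3 N+P C5 samples (53.55, 45.3 and 66.1 CPM), as were 0.967% of genes, with a log2 difference of 0.65 that did not pass (SE 0.85, adjusted p = 1). *Ifnar2* shares its locus with the readthrough gene *Gm21970* on the same strand, so reads of the shared exons are uncertain.

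*Jak2*, the kinase docked on IFNGR2, was above the level of the unmated controls in every PD1+CD73+ sample. Naive mice had 10.2, 34.2 and 58.2 CPM, N+P C1 had 24.2, 77.8 and 86.4 CPM, and N+P C5 had 106, 78.4 and 80.8 CPM. Sensitized mice had 43.5, 61.9, 42.3 and 60.4 CPM, and S+P C5 ran from 83.9 CPM through a median of 110.2 to 132 CPM. Both PD1+CD73+ groups were therefore above their controls with no overlap, as were 7.4% of genes in N+P C5 vs. Naive and 1.45% in S+P C5 vs. Sensitized. The log2 differences were 1.37 (SE 0.81, adjusted p = 0.774) and 1.05 (SE 0.65, adjusted p = 0.601), neither past the thresholds in edgeR. With only the compared groups in the fit, S+P C5 vs. Sensitized gave 1.07 and passed (adjusted p = 0.094).

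The PD1- and PD1+CD73- subsets of sensitized post-partum mice varied more in *Jak2*. S+P C4 ran from 44.1 CPM through a median of 68.8 to 657 CPM, the last in replicate 3, and S+P C7 had 82.3, 190.9, 83.2, 52.6 and 85.5 CPM. S+P C4 vs. Sensitized gave 1.68 (SE 0.67, adjusted p = 0.317), and without S+P C4 replicate 3 the difference was 0.38. Of 8 members, 0 passed in S+P C4 vs. Sensitized and S+P C7 vs. Sensitized, where 0.00509% and 0.0305% of genes passed in edgeR. An unadjusted p under 0.05 was found for 2 (*Jak1* and *Jak2*) and 1 (*Ifngr1*), and for 12.7% and 10.2% of all genes. DESeq2 called 0 and 0 members and limma-voom 1 and 2.

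*Jak1*, which serves both receptors, was highest in S+P C4. Sensitized mice had 568, 859, 875.5 and 849 CPM, and S+P C4 ran from 838 CPM through a median of 1374 to 1660 CPM, with 5 of 6 samples above the highest Sensitized sample and replicate 3 lowest. The S+P C4 vs. Sensitized difference was 0.745 on the log2 scale (SE 0.29, adjusted p = 0.317), and limma-voom with sample weights gave 0.93 and passed (adjusted p = 0.011). S+P C5 vs. S+P C4 gave -0.57 (SE 0.26, adjusted p = 0.322), under the fold threshold. In naive mice, the 3 N+P C5 samples (828.7, 788 and 869 CPM) were all below the 3 N+P C1 samples (934, 993 and 1203 CPM), as were 5.29% of genes, with a difference of -0.33 (SE 0.36, adjusted p = 1). The table gives no strand for its counts, and *Jak1* overlaps *Raver2* on the other strand.

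**Figure D4:**
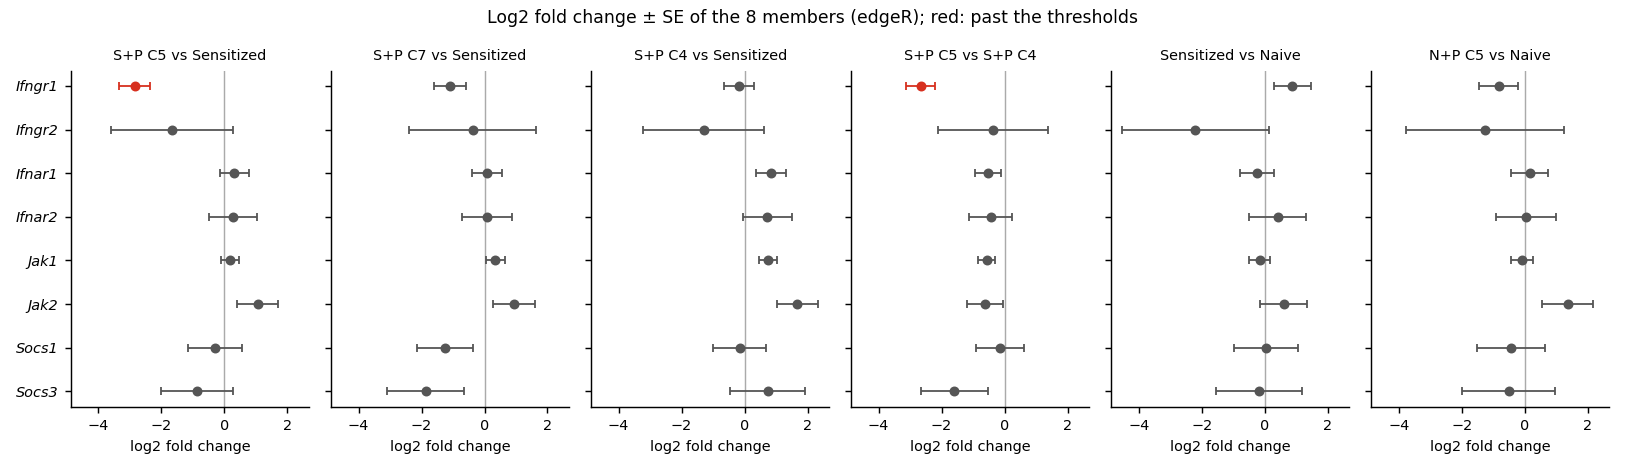
Log2 fold change (x axis, dot) with its SE (whisker) of the 8 members (rows) in 6 comparisons, from the edgeR fit over all samples. The only red dots, past the thresholds, are *Ifngr1* in S+P C5 vs. Sensitized (-2.85) and in S+P C5 vs. S+P C4 (-2.67); the whiskers of *Ifngr2* are the longest, with SEs of 1.75 to 2.51.

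The SOCS genes were low throughout, and neither passed in a comparison. *Socs1*, which inhibits JAK1 and JAK2, had group means of 20.8 ± 3.83 CPM (SD, N+P C5) to 28.7 ± 5.92 CPM (Sensitized) in 6 groups and 12.1 ± 9.28 CPM in S+P C7, whose samples had 18.7, 0, 15.9, 21.2 and 4.52 CPM. S+P C7 vs. Sensitized gave -1.25 on the log2 scale for *Socs1* (SE 0.88, adjusted p = 0.857), and the S+P C7 mean without replicate 3, the sample at 0, was 15.1 CPM. *Socs1* overlaps the antisense transcript gene *Gm46563*, and reads of the 2 cannot be told apart without strand.

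*Socs3*, the inhibitor best known from gp130 cytokine signalling, was likewise lowest in S+P C7, at 0.232, 0, 14.1, 26.0 and 6.14 CPM, whereas S+P C5 ran from 8.67 CPM through a median of 18.7 to 26.0 CPM. Sensitized mice had 59.6, 27.4, 33.8 and 15.1 CPM, and S+P C4 ran from 0 through a median of 24.4 to 231 CPM. S+P C7 vs. Sensitized gave -1.87 (SE 1.22, adjusted p = 0.779), and S+P C7 vs. S+P C4 gave -2.60 (SE 1.18, adjusted p = 0.272), of which -1.22 was left without S+P C4 replicate 3. Of 8 members, 0 passed in S+P C7 vs. S+P C4, where 0.00509% of genes did in edgeR. An unadjusted p under 0.05 was found for 1 (*Socs3*), and for 15.9% of all genes. DESeq2 and limma-voom called 0 members. In naive mice, *Socs3* was at 37.4, 24.3 and 18.8 CPM in N+P C5, all below the 65.8, 41.3 and 45.8 CPM of N+P C1, as were 5.29% of genes (log2 difference -0.93, SE 1.48, adjusted p = 1). The median log2 difference over all genes in S+P C7 vs. S+P C4 was 0.233, and over the 8 members -0.755. Without the samples of few detected genes, the median over all genes was 0.0946, and that of the members was not computed. Means in S+P C7 and S+P C4 were then 124 and 134 CPM (*Ifnar1*), 65.9 and 81.7 (*Ifnar2*), 75.9 and 56.8 (*Jak2*) and 1180 and 1441 (*Jak1*). For *Socs1* they were 15.1 and 18.1 CPM, for *Socs3* 11.6 and 26.9, for *Ifngr1* 244 and 467 and for *Ifngr2* 0.0976 and 7.27.

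Genes around the members were read from a list of 78 ligands, kinases, STATs, inhibitors and interferon targets, of which 68 were tested. In edgeR 3 entries passed over the 13 comparisons, all higher, whereas DESeq2 called 18 and limma-voom 23, with at most 3 and 6 in any comparison. Over all genes, edgeR called 0 to 30 and limma-voom 74 to 825 of 19657 per comparison. DESeq2 called 606 to 1102 of 20052 to 33255. The list counts were not tested against these and are given as a description. *Ifi27l2a*, a mitochondrial protein gene induced by interferons, was high in S+P C5 and also in the other PD1+ subsets. S+P C7 held 394 to 802 CPM, against 155 to 208.5 CPM in Sensitized. The log2 difference was 1.69 (SE 0.37, adjusted p = 0.228, edgeR), and DESeq2 and limma-voom called it. N+P C5 held 338 to 553 CPM, N+P C1 154 to 231 CPM and Naive 220 to 307 CPM. S+P C5 held 613 to 1530 CPM and S+P C4 held 89.6 to 563 CPM, a log2 difference of 1.63 (SE 0.32, adjusted p = 0.0603, edgeR). *Ifi27l2a* overlaps *Ifi27* on the other strand. The call in S+P C5 vs. S+P C4 was lost without S+P C4 replicate 1, 4 or 6 or S+P C5 replicate 2, 4, 5 or 6 (adjusted p = 0.12 to 0.25, edgeR). It was also lost without the low-count filter (0.316) and with only the compared groups (0.386). It was also the 1 of 22 type I targets past the thresholds in S+P C5 vs. Sensitized in edgeR, against 0.0712% of all genes, a call lost without the low-count filter (adjusted p = 0.19). In that comparison limma-voom also called *Ifit1*, *Ifit3* and *Oas2*, all lower in S+P C5. Their means were 29, 71.4 and 1.16 CPM in S+P C5 and 112, 170 and 17.9 CPM in Sensitized. The median of the type I targets was -0.64 on the log2 scale in edgeR against -0.01 for all genes, with 7 above and 15 below 0. None of 18 tested interferon-γ targets (such as *Irf1* and *Gbp2*) passed in S+P C5 vs. Sensitized in edgeR, and the median of the 18 was 0.12. An unadjusted p under 0.05 was found for 2 of them, both higher, and for 13% of all genes. Of these targets DESeq2 called 0 and limma-voom 1 (*Cxcl10*).

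Messenger RNA of *Ifng*, the gene of the ligand, was lowest in Naive. Its level was 0.0756 to 5.19 CPM in Naive, 10.1 to 26.2 CPM in N+P C1, 48.1 to 155 CPM in N+P C5 and 34.0 to 158.5 CPM in Sensitized. S+P C4 held 9.13 to 132 CPM, S+P C5 27.4 to 227 CPM and S+P C7 33.4 to 151 CPM. These levels are RNA and not protein. For N+P TFGS stimulated in vitro, the paper reported little interferon-γ protein, at a level like that of Naive TFGS. *Ifng* passed in Sensitized vs. Naive in the edgeR fit (log2 difference 4.84, SE 1.1, adjusted p = 0.0826), and DESeq2 called it too. It did not pass in limma-voom (adjusted p = 0.117), without the low-count filter (0.206) or with only the compared groups (0.218). The edgeR call was also lost without any 1 of the Naive samples (adjusted p = 0.402 to 0.473) and without Sensitized replicate 1, 2 or 3 (adjusted p = 0.113 to 0.227). In N+P C5 vs. Naive, *Ifng* differed by 4.7 on the log2 scale (SE 1.11, adjusted p = 0.182, edgeR), which did not pass, whereas DESeq2 called it. DESeq2 also called *Ifng*, as lower, in the S+P C5 vs. Sensitized difference minus that of N+P C5 vs. Naive. The 3 tested other receptors and kinases and the 15 other inhibitors (such as *Ptpn2*) had 0 members past the thresholds in any of the 13 comparisons in edgeR. Among these inhibitors, DESeq2 called *Usp18* and *Cish* in 2 comparisons each, and limma-voom called *Ptpn11* in 4 and *Socs2* in 1.

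The genes whose CPM ranked most like each member over the 30 samples were named as a description, among 8250 genes with a mean of at least 10 CPM. For *Ifngr1* they were *Epsti1* (Spearman rho 0.839), *Gm19585* (0.829) and the nuclear noncoding RNA *Neat1* (0.778). For *Ifngr2* they included *E430014B02Rik* (0.852) and *Itgae*, which encodes the integrin CD103 (0.818). *Jak2* ranked most like *Wipf1* (0.815), *Gm11655* (0.791) and *Ppp1cb* (0.752), and *Socs3* most like the ribosomal protein genes *Rpl4* (0.811) and *Rps3* (0.798) and *Ppp1r15a* (0.783). *Jak1* followed *Dock5* (0.728), *Ccdc88c* (0.722) and *Phf20l1* (0.673), *Ifnar2* followed *Kif13b* (0.708), *Snrnp48* (0.622) and *Pcyt1a* (0.607), *Socs1* followed *1110038B12Rik* (0.65), *Rpl7l1* (0.645) and *Rpl36a* (0.622), and *Ifnar1* followed *Gm45555* (0.616), *Dtx3l* (0.612) and *Eif4g2* (0.586). Between members, the rho of *Ifngr1* and *Ifngr2* was 0.131, and the highest was 0.522, for *Ifnar2* and *Jak2*. All points share library, depth and group.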

How the data were processed

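Bulk RNA-seq (SmartSeq2, 200 cells per library, no molecular identifiers) was deposited as raw read counts per gene for 56 libraries. Per the labels and the study's methods, the authors trimmed reads with cutadapt 3.4, aligned them to GRCm39 with STAR 2.6.1b, removed multi-mapping reads and made the deposited counts with featureCounts 2.0.1; the annotation release and strand setting are not given in the sources used here. Counts of technical libraries were summed per replicate; 1 library deposited identically under Naive 1 and S+P C4 1 was dropped from both, and S+P C7 1 and 2, nearly identical (correlation of log2 counts 0.9967, next highest technical pair 0.9289), were averaged, which left 30 samples. In 4 columns the technical letter differed from the label. Where replicates are not stated to be separate mice, p-values measure the spread between these samples.

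Genes were filtered with filterByExpr (minimum count 10), scaled by TMM and tested by robust quasi-likelihood F tests in edgeR 4.0.16 (R 4.3.3) with 7 groups in 1 fit and Benjamini-Hochberg adjustment over 19657 genes; SEs were derived from the F statistic. Alternatives were DESeq2 1.42.0, limma-voom with sample weights (limma 3.58.1), other scaling, filter, thresholds, sample sets, a replicate block and leaving out each replicate. The fits were tested on simulated counts. Gene symbols, exon lengths and transcript starts came from GENCODE M39 (54749 of 55359 IDs matched), and promoter bases from the GRCm39 genome. Genes named were the 8 members in every comparison, listed pathway genes past the thresholds, the 3 genes most alike in rank (a few named by these rules are not reported here), the sort genes, and *Cd22* and a few list genes as examples, chosen after their values were seen. The members and lists were chosen with earlier results of these data known. Replicate numbers were checked for pairing: the correlation of same-numbered deviations from group means was 0.0974 to 0.182 for S+P C5 and S+P C4, 0.123 to 0.192 for S+P C7 and S+P C5, 0.12 to 0.261 for S+P C7 and S+P C4, and 0.0225 to 0.102 for N+P C5 and N+P C1. The subset columns carry the same mouse-like number, but the labels do not state that it marks a mouse. Counting intervals and floors cover counting error only.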

Additional observations from a re-analysis of the deposited data

Results flagged for a closer look

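Single samples far from the rest of their group were found in 10 of 32 gene and group pairs (Dixon's gap test on CPM, groups of 4 to 6 samples). The test marks about 1 in 20 groups of independent, normally distributed values. The pairs here reuse the same samples and CPM need not be normal, so 10 of 32 cannot be set against that rate. S+P C4 replicate 3, with few detected genes and the highest mitochondrial share, was the highest of its group in *Ifnar1* (408 CPM, others 108 to 152 CPM), *Ifnar2* (378 CPM, others 0.0521 to 102.8 CPM), *Jak2* (657 CPM, others 44.1 to 113 CPM) and *Socs3* (231 CPM, others 0 to 36.4 CPM). S+P C7 replicate 3, also with few detected genes, was the highest in *Ifngr2* (48.3 CPM, others 0 to 0.39 CPM) and *Jak2* (190.9 CPM, others 52.6 to 85.5 CPM). S+P C4 replicate 6, with an ordinary number of detected genes, was at 27.6 CPM of *Ifngr2* against 0 to 1.69 CPM in the others. S+P C5 replicate 2 was at 204.8 CPM of *Ifnar1* against 91.7 to 123 CPM. Sensitized replicate 1 was lowest in *Jak1* (568 CPM) and Sensitized replicate 2 lowest in *Socs1* (19.8 CPM).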

How the results depend on the processing

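The number of members past the thresholds kept within 1.5 times its value in most alternatives. *Ifngr1* in S+P C5 vs. Sensitized was lost without the low-count filter (0 members), while limma-voom and the fit of only the compared groups added 1 member each (2 members). In S+P C5 vs. S+P C4 the call was lost without the filter and with only the compared groups (0 members each). limma-voom called 2 members in S+P C7 vs. Sensitized and 1 each in S+P C4 vs. Sensitized, S+P C5 vs. N+P C5 and S+P C4 vs. N+P C1. It also called 1 in the S+P C5 vs. Sensitized difference minus that of N+P C5 vs. Naive. DESeq2 called 1 in S+P C7 vs. S+P C5. In all of these comparisons edgeR called 0, and the cause was not tested. Leaving out each replicate gave 1 member in both *Ifngr1* comparisons (log2 fold change -3.25 to -2.62 and -3.07 to -2.43) and 0 in the other 11. The sign turned in 2 results: *Ifngr1* in S+P C4 vs. Sensitized ran from -0.433 to 0.0799, and *Ifngr2* in S+P C7 vs. Sensitized from -7.0 to 0.278. Over all genes, edgeR called 0 to 30 per comparison, DESeq2 606 to 1102, limma-voom 74 to 825, edgeR without samples of few detected genes 0 to 199, and with only the compared groups 0 to 142. The replicate block was fitted on the subsets of 1 cohort alone. With it, *Ifngr1* in S+P C5 vs. S+P C4 gave -2.89 (adjusted p = 0.0454) and 1 member passed, against 0 members in the same samples without the block (-2.67, adjusted p = 0.229); no other member call changed. Over all genes the block took S+P C5 vs. S+P C4 from 0 to 3 calls and N+P C5 vs. N+P C1 from 51 to 29 in those samples, where the fit of all groups gave 6 and 1. The unpaired fit of those samples, and the averaging of S+P replicates 1 and 2, were chosen after seeing the data; the averaging changed no member call. RLE in place of TMM scaling moved the median of all genes by 0.0331 at most. Among the members, *Ifngr2* had the widest SEs in each comparison of the edgeR fit, at 1.75 to 3.14.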
